A study of Mus musculus with 25 samples.

Results

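The 9 genes described here encode the subunits of the nicotinic acetylcholine receptor of skeletal muscle (*Chrna1*, *Chrnb1*, *Chrnd*, *Chrne* and *Chrng*) and 4 proteins of the neuromuscular junction or of the response to denervation (*Musk*, *Ncam1*, *Runx1* and *Hdac4*). They are a list of names, drawn up with earlier results of these data known, and are 9 of the 52636 genes counted. RNA of the *soleus*, a hindlimb muscle with many slow fibers, was sequenced from 25 mice in 4 groups. The 5 WT mice and 7 mD3AKO mice at rest were taken after 30 minutes on a sham treadmill, and the 7 WT mice and 6 mD3AKO mice of the exercised groups 60 minutes after a treadmill run of 30 minutes. All mice were 12 weeks old, of the C57BL/6 background, used to the treadmill on the days before, and homozygous for floxed *Dnmt3a*, the gene of a *de novo* DNA methyltransferase. WT mice carried no Cre. mD3AKO mice also carried *mCK-Cre*, in which the muscle creatine kinase promoter drives Cre recombinase in skeletal muscle and heart and exon 19 of *Dnmt3a* is removed. The paper describes the deletion as one of differentiated fibers. *Dnmt3a* RNA measured in mD3AKO tissue may therefore include that of cells in which this promoter is silent, such as satellite cells and cells that are not muscle.

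The receptor is a pentamer built of alpha, beta and delta subunits with either the gamma subunit, which is used in fetal and denervated fibers, or the epsilon subunit, which replaces it in innervated adult fibers. MUSK is the receptor tyrosine kinase through which agrin of the motor nerve gathers these receptors under the nerve terminal. Electrical activity keeps the receptor genes low in the rest of the fiber, and loss of the nerve releases them, with HDAC4, a histone deacetylase that represses *Dach2*, and myogenin among the known steps. NCAM1, a cell adhesion molecule, and RUNX1, a transcription factor, are classical products of denervated fibers. In RNA of a whole muscle, fewer cells or nuclei of a kind and less RNA per cell cannot be told apart, and the junction is a small share of each fiber.

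The RefSeq promoter windows, from 250 bases before to 50 bases after the start site in GRCm38.p6, are shown for *Chrna1* and *Musk*, which differed between sexes, and for *Chrng* and *Chrne*, the fetal and the adult subunit. Capitals mark the E-box (CANNTG, the letters of myogenic factors such as myogenin, which read the same on both strands) and the N-box (CCGGAA on either strand, known from junction genes), which overlap in none of these windows. All are written 5′ to 3′ on the strand of the gene.
Chrna1 (chr2:73580289-73580588, minus strand): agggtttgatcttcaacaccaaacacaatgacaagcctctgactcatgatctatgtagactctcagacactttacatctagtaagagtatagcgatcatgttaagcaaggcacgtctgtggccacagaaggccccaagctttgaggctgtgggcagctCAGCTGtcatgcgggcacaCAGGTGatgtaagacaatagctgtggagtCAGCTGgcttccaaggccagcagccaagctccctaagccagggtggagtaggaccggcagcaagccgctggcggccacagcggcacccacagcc
Chrne (chr11:70619145-70619444, minus strand): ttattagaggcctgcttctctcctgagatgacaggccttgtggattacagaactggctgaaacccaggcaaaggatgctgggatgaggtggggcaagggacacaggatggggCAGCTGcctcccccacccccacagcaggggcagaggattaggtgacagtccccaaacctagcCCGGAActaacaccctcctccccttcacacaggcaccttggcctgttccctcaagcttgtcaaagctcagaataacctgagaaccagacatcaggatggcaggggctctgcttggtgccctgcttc
Chrng (chr1:87205561-87205860, plus strand): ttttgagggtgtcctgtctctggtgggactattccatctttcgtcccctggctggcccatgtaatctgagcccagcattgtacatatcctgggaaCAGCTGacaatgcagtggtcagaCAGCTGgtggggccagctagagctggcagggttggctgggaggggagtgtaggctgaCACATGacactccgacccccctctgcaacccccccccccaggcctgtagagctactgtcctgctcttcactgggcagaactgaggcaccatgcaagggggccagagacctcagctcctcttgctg
Musk (chr4:58285712-58286011, plus strand): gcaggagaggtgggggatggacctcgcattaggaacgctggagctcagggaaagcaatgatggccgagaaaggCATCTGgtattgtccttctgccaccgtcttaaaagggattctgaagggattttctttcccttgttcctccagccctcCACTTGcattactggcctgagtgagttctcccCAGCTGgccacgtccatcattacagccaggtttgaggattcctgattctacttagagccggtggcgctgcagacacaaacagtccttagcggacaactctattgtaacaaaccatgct
The windows of *Chrna1*, *Chrng* and *Musk* held 3 E-boxes each and that of *Chrne* 1. An E-box was present in 72.3% of all 32851 windows of this length, so that its presence is common. The N-box was present in 14.9% of all windows and, among these 4, in that of *Chrne*. The number of CpG dinucleotides, the sites of DNA methylation, was 7 in the window of *Chrna1*, 8 in that of *Musk*, 2 in that of *Chrng* and 1 in that of *Chrne*, beside a median of 7 over all windows. Of the 9 genes, 7 had a window. The window of *Chrnb1* held 3 E-boxes and 17 CpG, that of *Hdac4* held neither motif and 32 CpG, and *Runx1* had 2 windows, the distal one with 3 E-boxes and 2 CpG and the proximal one with 1 N-box and 35 CpG. The start of *Chrng* in RefSeq lies 1154 bases inside the gene model used for counting. These are descriptions of letters, and no binding or methylation was measured here.

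Between 22671457 and 37431801 reads per library were counted on genes (median 32189360). *Dnmt3a*, the targeted gene, was at 34.5 to 53.9 CPM (counts scaled to the library size) in the 13 mD3AKO mice and at 93.4 to 131 CPM in the 12 WT mice, without overlap. The 13 males have the mouse numbers 7 to 19 and the 12 females the other numbers, and both sexes are present in each group. Several libraries stood apart in some measure and are named where they touch a result. In mouse 15 (mD3AKO, rest, male) 39.5% of the counts lay on 3 ribosomal RNA genes, beside 7.75% to 13.0% in the other 24 mice. Mouse 7 (mD3AKO, rest, male) had the highest summed level of 5 fibroblast genes, 4301 CPM beside a median of 1463 CPM over all mice. Mouse 19 (mD3AKO, exercised, male) and mouse 7 had the highest sums of 8 immune cell genes, 91.7 and 93.1 CPM beside a median of 47.6 CPM. The sum of 8 Schwann cell genes was 185 to 515 CPM in mice 10, 17, 20, 21, 22 and 25 and at most 77.8 CPM in the others, and the slow fiber sum was highest in mouse 2, at 46166 CPM. *Myh7* of slow fibers (8498 to 20180 CPM) and *Myh2* of fast fibers (6882 to 13790 CPM) were high in all libraries, whereas *Myh4* of the fastest fibers ranged from 18.7 to 5208 CPM.

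The order of the genes by level is given per kilobase of gene length, as RPKM. *Musk* and *Chrna1* were the highest, at 13.9 ± 3.19 and 13.1 ± 3.44 RPKM (SD, n = 25). *Musk* was above *Chrna1* in 14 of 25 mice, and the order of their means turned with sex. In the 13 males they were at 16.1 ± 2.96 and 11.7 ± 2.29 RPKM, and in the 12 females at 11.6 ± 1.21 and 14.5 ± 3.96 RPKM. *Chrnb1* followed at 6.66 ± 1.24 RPKM and *Hdac4* at 3.61 ± 0.70 RPKM, each below the gene before it in every mouse. *Chrne*, at 2.83 ± 0.47 RPKM, was below *Hdac4* in 21 of 25 mice, and above *Ncam1*, at 2.57 ± 0.48 RPKM, in 15 of 25 mice. The order of these 2 means turned with sex as well. *Chrne* and *Ncam1* were at 2.89 ± 0.46 and 2.27 ± 0.43 RPKM in males, and at 2.76 ± 0.49 and 2.89 ± 0.29 RPKM in females. *Chrnd* was at 1.77 ± 0.28 RPKM, *Runx1* at 0.61 ± 0.31 RPKM and *Chrng* at 0.071 ± 0.071 RPKM, each below the gene before it in at least 24 of 25 mice. Thus the subunit genes of 1 receptor spanned more than 2 orders of magnitude, with the alpha subunit at the top and the fetal gamma subunit at the bottom.

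**Figure D1:**
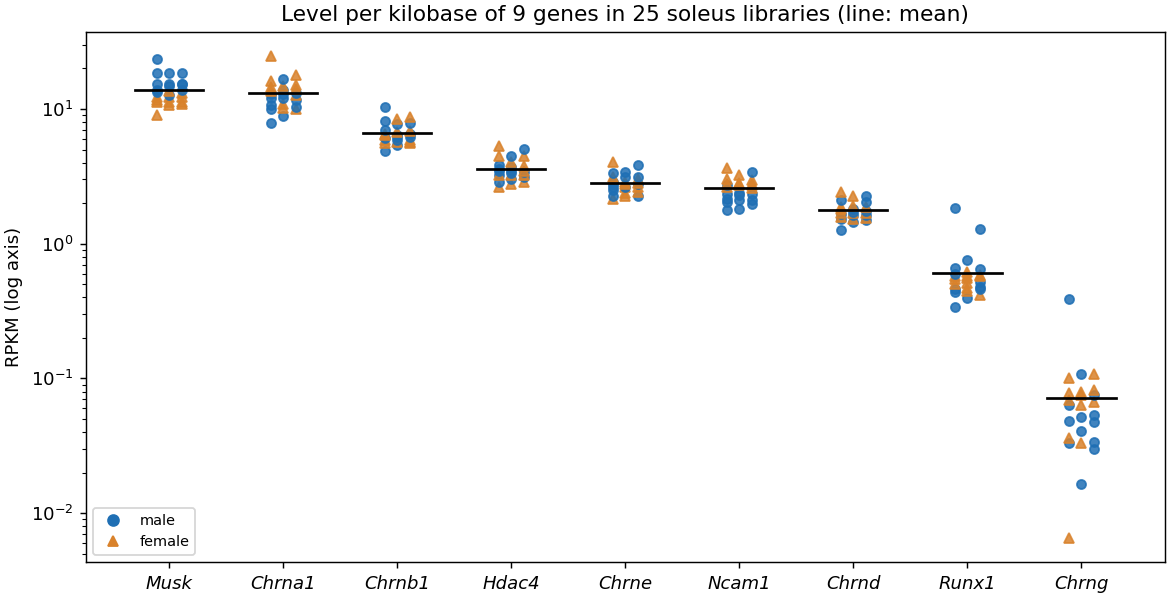
Level of the 9 genes in RPKM (log axis) in 25 *soleus* libraries, with blue circles for males, orange triangles for females and a line for the mean. The genes are in the order of their means, from *Musk* at 13.9 RPKM to *Chrng* at 0.071 RPKM, and single male points stand far above the others for *Runx1* and *Chrng*.

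Exercise, genotype and their interaction were tested over all 16340 genes that passed the filter on low counts, which included all 9 genes. The quasi-likelihood test of edgeR with Benjamini-Hochberg adjustment called 0 of the 9 for exercise (10.4% of all genes were called), 0 of the 9 for genotype (0.269% of all genes) and 0 of the 9 for the interaction (0% of all genes). At an unadjusted p under 0.05 there was 1 gene for exercise (*Chrne*, beside 21.3% of all genes), 2 for genotype (*Chrna1* and *Runx1*, beside 6.23%) and 0 for the interaction (beside 2.47%). Within 1 genotype, exercise called 0 of the 9 in WT mice (3.59% of all genes) and 0 in mD3AKO mice (6.02%), and genotype called 0 at rest (0.0918%) and 0 after exercise (0.11%). The median log2 fold change of the 9 was -0.02 for exercise and 0.10 for genotype, beside -8.83e-04 and 0.01 over all tested genes. Standard errors ranged from 0.08 to 0.40 for both main effects, with the largest for *Chrng*, so that small changes of that gene could not be detected. For exercise the standard error of *Chrng* was 0.30 without mice 7, 15 and 19.

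**Figure D2:**
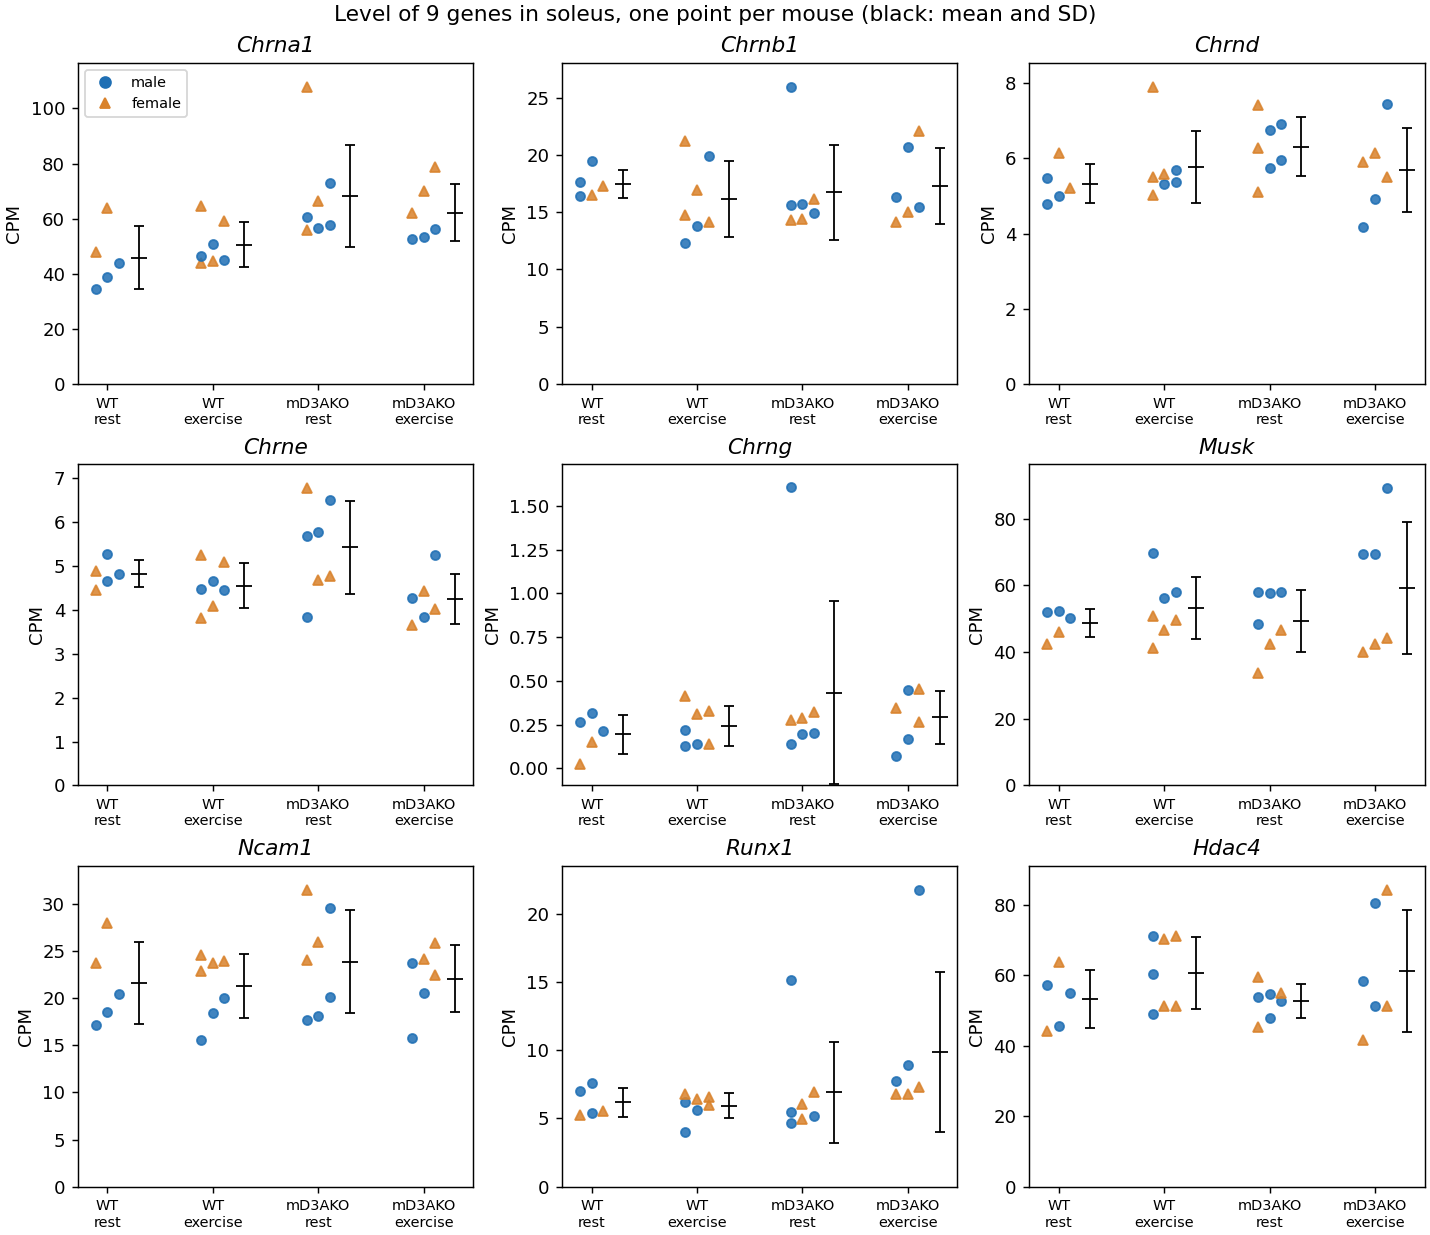
Level of each gene in CPM (linear axes) by group, with 1 point per mouse, blue circles for males, orange triangles for females and black bars for the mean and SD. *Chrna1* lies higher in the mD3AKO groups, while the values of *Chrng* and *Runx1* in these groups are spread by single mice, at 1.61 CPM for *Chrng* and at 15.1 and 21.8 CPM for *Runx1*.

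*Chrna1*, the alpha subunit that binds acetylcholine (ENSMUSG00000027107, chr2:73563215-73580338, minus strand, mm10), had the smallest p-value for genotype among the 9. The 5 WT mice at rest had 34.4, 39.0, 43.8, 47.8 and 64.0 CPM. The WT mice after exercise ranged from 43.8 to 64.5 CPM (median 46.6), the mD3AKO mice at rest from 56.0 to 108 CPM (median 60.7) and the mD3AKO mice after exercise from 52.5 to 78.7 CPM (median 59.2). All 13 mD3AKO mice were above the median of the WT mice, and the ranges of the genotypes overlapped through the highest WT females. The level in mD3AKO mice was 1.35-fold that of WT mice (log2 fold change 0.44, SE 0.11), with an unadjusted p of 5.90e-04 and an adjusted p of 0.122 in edgeR, which did not pass. The log2 difference was 0.58 (SE 0.16) at rest and 0.30 (SE 0.15) after exercise, and the difference between these did not pass (-0.28, SE 0.22, adjusted p 0.9998, and from -0.43 without mouse 1 to -0.13 without mouse 2). Exercise itself left the gene at 1.00-fold.

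Whether *Chrna1* passed for genotype depended on the setting. With sex as an additive term the adjusted p was 0.0184 (0.441% of all genes called), with DESeq2 0.0282 (0.496%), with the males alone 0.0483 (0.143%) and without mouse 1, the highest WT mouse at rest, 0.0342, whereas it did not pass with 8 groups of sex, genotype and exercise (0.0534), limma-voom (0.106), no filter (0.134), without mice 7, 15 and 19 (0.159), without the 6 mice with the highest Schwann cell sums (0.309) or with library totals in place of TMM (0.480). The log2 difference, 0.44 in the fit of 4 groups, was 0.47 without mice 7, 15 and 19, 0.48 without the 6 mice and 0.40 with library totals, so that these settings differ in their adjusted p more than in the size of the difference. It stayed between 0.36 and 0.51 when each mouse was left out in turn. Among the males, the 7 mD3AKO mice had 52.5 to 72.9 CPM and the 6 WT mice 34.4 to 50.7 CPM, without overlap. With library totals in place of TMM the males overlapped, since mice 15, 17 and 19 of the mD3AKO group, at 46.0, 48.5 and 49.1 CPM, lay below the highest WT male at 49.4 CPM. Mouse 15, the highest male on the TMM scale at 72.9 CPM, is the library with the large share of ribosomal RNA. Among the females, the 6 mD3AKO mice had 56.0 to 108 CPM and the 6 WT mice 43.8 to 64.5 CPM, which overlapped. The fitted log2 fold change was 0.42 in the males alone and 0.43 in the females alone, where 0 of the 9 genes passed for genotype (0.0355% of all genes). Whether the difference by genotype differed between sexes was not tested.

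*Chrnb1*, the beta subunit (ENSMUSG00000041189, chr11:69784036-69795943, minus strand), ranged from 12.3 to 26.0 CPM over all mice, with group means of 16.2 to 17.5 CPM. Its log2 fold change was -0.03 (SE 0.10) for exercise and 0.02 (SE 0.10) for genotype, with a 95% interval of -0.18 to 0.22 for the latter. The highest value was that of mouse 7, and without it the mD3AKO mice at rest ranged from 14.3 to 16.1 CPM. *Chrnd*, the delta subunit (ENSMUSG00000026251, chr1:87190607-87200070, plus strand), ranged from 4.17 to 7.91 CPM. Its log2 fold change was 0.11 (SE 0.09) for genotype and -0.02 (SE 0.09) for exercise. At rest 6 of 7 mD3AKO mice were above the WT median of *Chrnd*, with a log2 difference of 0.24 (SE 0.13, unadjusted p 0.0670 in edgeR), which did not pass.

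*Chrne*, the adult epsilon subunit (ENSMUSG00000014609, chr11:70614883-70619216, minus strand), was the gene with the smallest p-value for exercise among the 9. The 5 WT mice at rest had 4.45, 4.66, 4.82, 4.89 and 5.28 CPM, and the WT mice after exercise 3.81 to 5.25 CPM (median 4.48). The mD3AKO mice ranged from 3.83 to 6.77 CPM (median 5.68) at rest and from 3.65 to 5.26 CPM (median 4.14) after exercise. All 6 exercised mD3AKO mice were below the median of the resting mD3AKO mice, and the groups overlapped. Exercise gave a log2 fold change of -0.22 (SE 0.08), with an unadjusted p of 0.0161 and an adjusted p of 0.109 in edgeR, which did not pass. It was -0.35 (SE 0.12) in mD3AKO and -0.08 (SE 0.12) in WT mice. The interaction test (-0.27, SE 0.17, adjusted p 0.9998 in edgeR) did not pass, so that these are not shown to differ. Without mouse 7, whose *Chrne* was the lowest of its group, the log2 fold change of -0.25 passed with an adjusted p of 0.0349.

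*Chrng*, the fetal gamma subunit (ENSMUSG00000026253, chr1:87204657-87212694, plus strand), was near the limit of detection in all mice but 1. In 24 mice it had 1 to 15 counts, and in mouse 7 it had 63 counts. The 5 WT mice at rest had 0.027, 0.15, 0.22, 0.27 and 0.31 CPM and the exercised WT mice 0.13 to 0.42 CPM (median 0.22). The mD3AKO mice had 0.14 to 1.61 CPM (median 0.28) at rest and 0.068 to 0.45 CPM (median 0.30) after exercise. The log2 fold change for genotype was 0.78 (SE 0.39, adjusted p 0.835 in edgeR) with mouse 7 and 0.34 without it, and neither passed. Mouse 7 was 3.55 times the highest of the other 24 mice.

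In RPKM, *Chrng* made up 14.6% of the sum of *Chrng* and *Chrne* in mouse 7, and 0.25% to 4.79% (median 1.94%) in the other 24 mice. Epsilon transcripts thus exceeded gamma transcripts in every mouse, and mouse 7 had the largest gamma share. That mouse also had 506 CPM of *Myh3*, the embryonic myosin heavy chain, beside at most 72.7 CPM in the other 24 mice, and its sum of fibroblast genes was the highest, as given above. The part of those other cells in its *Chrng* level was not tested.

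*Musk* (ENSMUSG00000057280, chr4:58285960-58374303, plus strand) had 42.5, 46.1, 50.3, 52.0 and 52.2 CPM in the 5 WT mice at rest. It had 41.3 to 69.6 CPM (median 50.9) in exercised WT mice, 33.8 to 58.1 CPM (median 48.3) in resting mD3AKO mice and 40.1 to 89.1 CPM (median 56.8) in exercised mD3AKO mice. The groups overlapped widely, and within each group the females held the lowest places. The log2 fold change with exercise was 0.20 (SE 0.12, adjusted p 0.370 in edgeR) and that with genotype 0.08 (SE 0.12, adjusted p 0.9999), and neither passed. With sex as an additive term the exercise difference of 0.23 passed (adjusted p 0.0316 in edgeR, 11.9% of all genes called). It also passed with 8 groups of sex, genotype and exercise (0.21, adjusted p 0.0243, 1819 genes called). In a fit of the males alone it was 0.34 and passed (adjusted p 0.0190, 6.01% of all genes). In the fit of 4 groups without the 6 mice with the highest Schwann cell sums it was 0.10, beside 0.20 with all mice, and neither passed.

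*Ncam1* (ENSMUSG00000039542, chr9:49502136-49798925, minus strand) ranged from 15.5 to 31.5 CPM, with group means of 21.3 to 23.9 CPM. Its log2 fold change was -0.07 (SE 0.11) for exercise and 0.10 (SE 0.11) for genotype. The 95% intervals, -0.27 to 0.14 for exercise and -0.10 to 0.31 for genotype, leave room for changes of either sign. The gene shares 417 exon bases with the antisense gene *Gm11149*, which held 67 counts over all libraries beside 18299 for *Ncam1*.

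*Runx1* (ENSMUSG00000022952, chr16:92601466-92826149, minus strand) had 5.28, 5.43, 5.51, 7.02 and 7.62 CPM in the 5 WT mice at rest and 4.04 to 6.78 CPM (median 6.17) in exercised WT mice. The mD3AKO mice had 4.69 to 15.1 CPM (median 5.45) at rest and 6.78 to 21.8 CPM (median 7.52) after exercise. Mice 7 and 19 stood above all the others, which lay between 4.04 and 8.90 CPM. After exercise, all 6 mD3AKO mice were above the WT median, and the ranges met at 6.78 CPM. The log2 fold change for genotype was 0.45 (SE 0.20), with an unadjusted p of 0.0291 and an adjusted p of 0.757 in edgeR, and it was 0.25 without mouse 19. For exercise, 12 of 13 exercised mice were above the median of the resting mice, with a log2 fold change of 0.22 (SE 0.20, adjusted p 0.594), 0.02 without mouse 19 and 0.39 without mouse 7. The gene shares 106 exon bases with the antisense gene *Gm26626*, which held 67 counts over all libraries beside 5867 for *Runx1*.

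In mouse 19 *Runx1* was 3.45 times the median of the other 24 mice and *Musk*, the highest of all, 1.79 times that median. Of the 19 genes listed for the response to denervation, 5 had their highest level in mouse 19, which held the highest level of 9.54% of all tested genes, and 4 in mouse 15 (8.16% of all tested genes). Among the 5 were *Myog* (35.2 CPM) and *Myod1* (14.4 CPM), the myogenic factors, *Cdkn1a* (25.9 CPM) and *Tead4* (26.2 CPM). For *Myog* the next mouse, at 34.3 CPM, was almost as high, whereas for *Tead4* the next was at 16.8 CPM. *Fbxo32* of the same list had its lowest level in mouse 19, at 247 CPM. *Chrng*, at 5 counts, and *Chrnd*, the lowest of all mice at 4.17 CPM, were not raised in mouse 19.

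*Hdac4* (ENSMUSG00000026313, chr1:91928779-92195699, minus strand) ranged from 44.2 to 63.8 CPM in resting WT, 49.1 to 71.2 CPM in exercised WT, 45.3 to 59.4 CPM in resting mD3AKO and 41.5 to 84.3 CPM in exercised mD3AKO mice. The exercised groups were the wider ones, with an SD of 17.3 CPM in mD3AKO and 10.1 CPM in WT mice, beside 4.73 and 8.22 CPM at rest. The log2 fold change with exercise was 0.20 (SE 0.10), with an unadjusted p of 0.0538 and an adjusted p of 0.245 in edgeR, and the genotypes were at 1.00-fold of each other. *Hdac4* shares 3536 exon bases with the antisense gene *Gm26720*, which held 1 count over all libraries.

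**Figure D3:**
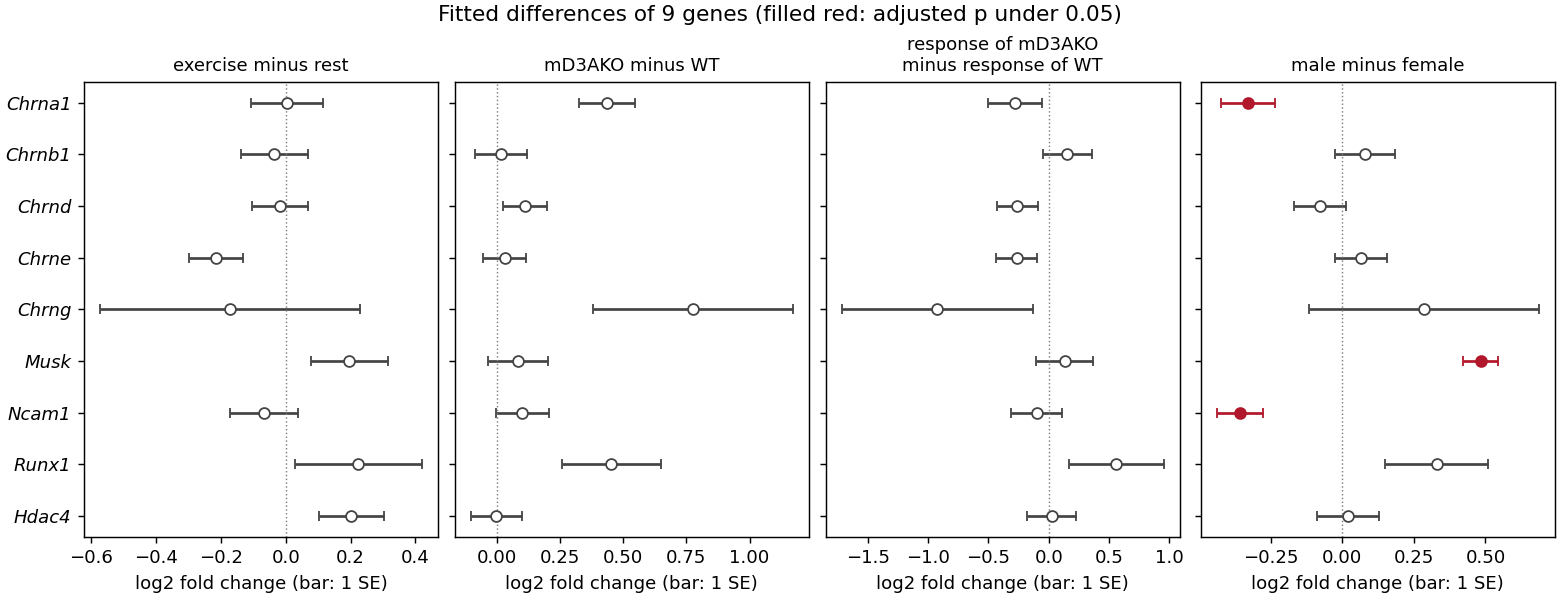
Fitted log2 fold change with its standard error for the 9 genes in 4 comparisons, each with its own axis, and filled red points for an adjusted p under 0.05. No gene is filled for exercise, genotype or the interaction, and *Chrna1*, *Musk* and *Ncam1* are filled for sex at -0.33, 0.48 and -0.36.

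Sex was tested over 17389 genes in a fit with 8 groups of sex, genotype and exercise, each of 2 to 4 mice. It called 3 of the 9 genes, beside 8.15% of all genes, 1 of them higher in males (5.36% of all genes) and 2 lower (2.79%). Mouse numbers 7 to 19 are all male, so that anything else that goes with these numbers cannot be told apart from sex.

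*Musk* was higher in males. The females had 33.8 to 50.9 CPM (median 43.4) and the males 48.3 to 89.1 CPM (median 57.9), and all 13 males were above the female median. The log2 difference was 0.48 (SE 0.06, adjusted p 2.26e-05 in edgeR), a 1.40-fold level, and it passed without each mouse in turn, with a log2 difference of 0.44 to 0.51. *Ncam1* was lower in males. The females had 22.5 to 31.5 CPM (median 24.1) and the males 15.5 to 29.6 CPM (median 18.5), and 12 of 13 males were below the female median, the exception being mouse 7. The log2 difference was -0.36 (SE 0.08, adjusted p 0.00773).

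*Chrna1* was also lower in males, with 34.4 to 72.9 CPM (median 52.5) beside 43.8 to 108 CPM (median 63.0) in females. The log2 difference of -0.33 (SE 0.10) had an adjusted p of 0.0351 in edgeR and did not pass without mouse 1 (log2 -0.27, adjusted p 0.117) or without mouse 3, 11, 17 or 18, where the log2 difference stayed at -0.33 to -0.31 (adjusted p 0.0549, 0.0659, 0.0573 and 0.0616). The other 6 genes did not pass, with log2 differences from -0.08 for *Chrnd* to 0.33 for *Runx1*. For *Runx1* 6 of 13 males were above the female median, and the highest values, 21.8 and 15.1 CPM, were those of males 19 and 7.

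Fiber type markers moved with sex. Of 6 slow fiber genes 5 were lower in males (2.79% of all genes, median log2 difference of the list -0.36) and of 6 fast fiber genes 4 were higher (5.36% of all genes, median 0.39), beside a median of -0.01 over all tested genes. The slow fiber sum was 23205 to 30178 CPM in males and 28515 to 46166 CPM in females, and the fast fiber sum 27307 to 43891 and 21954 to 35265 CPM. Of 8 Schwann cell genes 1 passed, *Ngfr*, lower in males (2.79% of all genes), with a median for the list of -0.78 and a sum of 37.2 to 230 CPM in males and 41.0 to 515 CPM in females, highest in mouse 21. Without the 6 mice with the highest Schwann cell sums, the log2 difference was 0.49 for *Musk*, -0.50 for *Chrna1* and -0.30 for *Ncam1*. That fit left mouse 1 as the only resting WT female and mouse 19 as the only exercised mD3AKO male, so that only the sizes are given. Of 6 satellite cell genes 2 passed, *Pax7* and *Chodl*, both lower in males (2.79% of all genes). The immune cell, fibroblast and endothelial lists held 0 genes that passed for sex. The part of fiber type, nerve tissue or satellite cells in the differences of *Musk*, *Ncam1* and *Chrna1* was not tested.

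**Figure D4:**
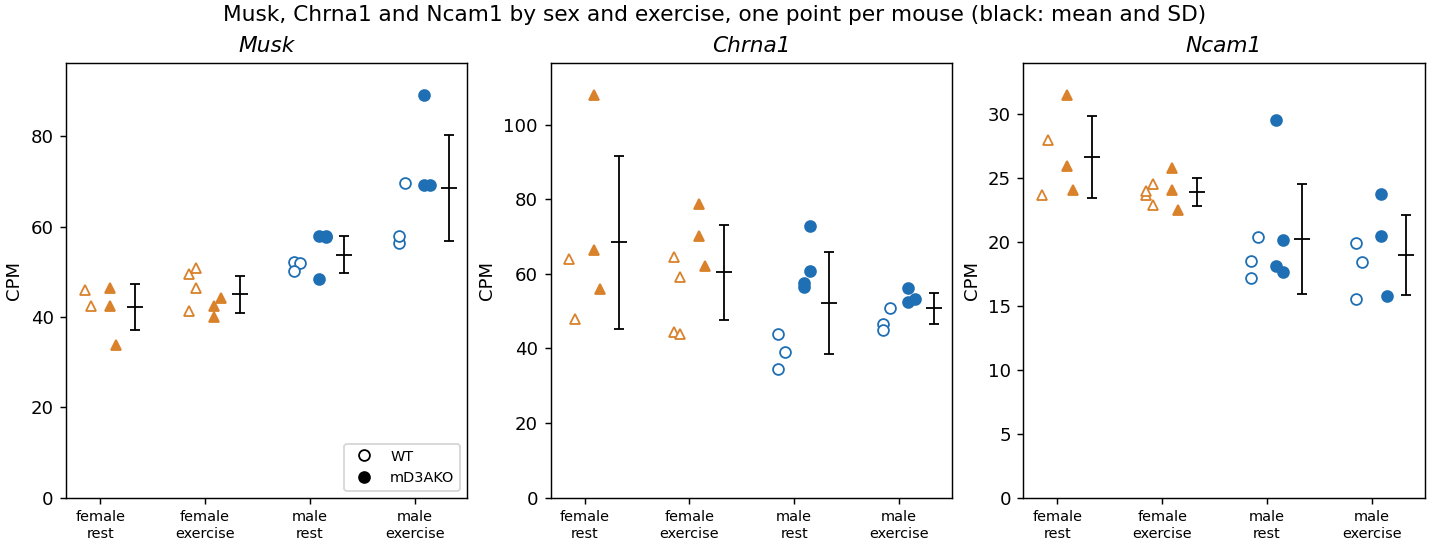
*Musk*, *Chrna1* and *Ncam1* in CPM by sex and exercise, with open symbols for WT, filled symbols for mD3AKO, 1 point per mouse and black bars for the mean and SD. For *Musk*, the exercised males reach from 56.3 to 89.1 CPM and the females of both conditions stay at or below 50.9 CPM.

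Within the males, *Musk* was higher after exercise. The 7 resting males had 48.3 to 58.1 CPM (median 52.2) and the 6 exercised males 56.3 to 89.1 CPM (median 69.3), and all 6 were above the resting median. The log2 fold change was 0.35 (SE 0.08, adjusted p 0.00996 in edgeR, 6.41% of all genes called). It stayed between 0.28 (without mouse 19) and 0.38 when each mouse was left out in turn. Without the 6 mice with the highest Schwann cell sums it was 0.47, but that fit left mouse 19 as the only exercised mD3AKO male. The 5 resting females had 33.8, 42.4, 42.5, 46.1 and 46.5 CPM and the exercised females 40.1 to 50.9 CPM (median 44.3), with a log2 fold change of 0.07 (SE 0.09, adjusted p 0.892, 3.5% of all genes called). The difference between the responses of the sexes, 0.28 (SE 0.12), had an unadjusted p of 0.0310 and an adjusted p of 0.9999 (0.046% of all genes called), so that the responses are not shown to differ. The same test for *Chrng* gave -2.01 (SE 0.79, unadjusted p 0.0189, adjusted p 0.9999), with -1.20 without mouse 7, and the other 7 genes had larger p-values. At an unadjusted p under 0.05 these were 2 of the 9 genes, beside 3.28% of all genes.

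Of 27 further genes of the postsynaptic apparatus 26 were tested, and 3 rose with exercise while 0 fell (5.7% of all genes rose and 4.69% fell). *Dok7*, whose product binds and activates MUSK, rose 1.28-fold (log2 0.35, SE 0.09, adjusted p 0.0114 in edgeR). *Crk*, an adaptor that binds phosphorylated DOK7, rose 1.16-fold (log2 0.21, SE 0.04, adjusted p 8.91e-04), and *Nes*, the intermediate filament nestin, 1.22-fold (log2 0.28, SE 0.08, adjusted p 0.0197). With library totals in place of TMM, or without the 6 mice with the highest Schwann cell sums, 1 of these 26 genes passed (927 and 1074 of all genes called, beside 1699), and 0 passed in the males alone (6.01% of all genes) or in the females alone (3.03%). The median log2 fold change of the list was 0.02. For genotype 0 of the 26 passed, with *Erbb4* the highest (0.25, SE 0.15) and *Sntb1* the lowest (-0.23, SE 0.16). The agrin receptor *Lrp4* (-0.10, SE 0.06) and the clustering protein *Rapsn* (0.08, SE 0.05) did not pass for exercise, and the lowest value was that of *Col13a1* (-0.24, SE 0.14).

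Of 19 further genes of the denervation response, all tested, 2 rose with exercise and 0 fell (5.7% and 4.69% of all genes). The 2 were *Trim63*, a ubiquitin ligase of muscle atrophy (1.64-fold, log2 0.72, SE 0.09, adjusted p 2.17e-06 in edgeR), and *Cdkn1a*, a cell cycle inhibitor (1.64-fold, log2 0.72, SE 0.16, adjusted p 0.00346). Without mouse 7, 4 of the 19 rose and 0 fell (5.87% and 4.34% of all genes), among them *Trim63*, *Cdkn1a* and *Myog*, the myogenic factor (log2 0.69, adjusted p 0.0331). The ligase *Fbxo32*, often listed with *Trim63*, did not pass (-0.15, SE 0.11), and *Myh3* was the lowest (-0.83, SE 0.41, adjusted p 0.247). That value rests on mouse 7, since *Myh3* was at -0.08 (SE 0.21) without it, where *Myod1* was the lowest (-0.40, SE 0.20, adjusted p 0.270). For genotype 1 of the 19 passed (0.226% of all genes were higher in mD3AKO mice), and 2 passed without mouse 3, 6, 12, 19 or 22. At an unadjusted p under 0.05 in edgeR there were 7 of the 19 in either direction, beside 6.23% of all genes. *Myh8*, the perinatal myosin heavy chain, was 10.5-fold higher in mD3AKO mice (log2 3.39, SE 0.33, adjusted p 7.10e-07), and its reads can be shared with related myosin genes. *Myog* was next (log2 0.96, SE 0.22, adjusted p 0.0543) and did not pass, and *Fbxo32* was the lowest (-0.16, SE 0.11).

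Markers of other cells moved with exercise too. Of 4 endothelial genes 2 fell, *Cdh5* (log2 -0.23, SE 0.06) and *Kdr* (-0.58, SE 0.07), beside 4.69% of all genes, and the sum of the 4 was 318 to 427 CPM in resting and 261 to 350 CPM in exercised WT mice, and 308 to 412 CPM in resting and 278 to 335 CPM in exercised mD3AKO mice. Of 6 satellite cell genes *Pax7* (-0.45, SE 0.10) and *Myf5* (-0.46, SE 0.09) fell and *Sdc4* (0.93, SE 0.08) rose, beside 4.69% and 5.7% of all genes. Their sum was 77.1 to 107 CPM in resting and 150 to 183 CPM in exercised WT mice, and 91.6 to 125 CPM in resting and 116 to 180 CPM in exercised mD3AKO mice. *Sdc4* alone made up 60.5% to 86.4% of that sum. The other 5 genes summed to 24.3 to 36.8 CPM in resting and 27.5 to 39.6 CPM in exercised WT mice, and to 24.9 to 43.8 CPM and 24.4 to 39.5 CPM in mD3AKO mice, which overlapped. The 5 fibroblast genes had a median of -0.39, and 0 of them passed. The slow fiber, fast fiber, Schwann cell and immune cell lists also held 0 genes that passed for exercise. For genotype *Pax7* was higher in mD3AKO mice (log2 0.48, adjusted p 0.0384 in edgeR, beside 0.226% of all genes). The part of these cells in the changes of both lists was not tested.

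Of the 3 genes listed with *Runx1*, its paralogs *Runx2* and *Runx3* and their shared partner *Cbfb*, *Runx2* fell with exercise (log2 -0.55, SE 0.13, adjusted p 0.00455 in edgeR, beside 4.69% of all genes) at 0.41 to 1.39 CPM. *Runx3*, at 0 to 0.61 CPM, had a log2 fold change of 0.95 (SE 0.33, adjusted p 0.0631), which did not pass, and *Cbfb*, at 27.0 to 43.4 CPM, of 0.03 (SE 0.06). Of 11 nicotinic subunits outside the muscle receptor 4 were tested, and *Chrna9* rose with exercise (log2 1.37, SE 0.42, adjusted p 0.0360, beside 5.7% of all genes) at 1 to 67 counts per library. *Chrna3*, *Chrna6* and *Chrnb3* had at most 2 counts in any library, and *Chrnb4* had 0 counts in all 25.

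How the 9 genes varied among mice of the same group was described by Pearson's r of log2 CPM over 25 libraries after the 4 group means were removed. The libraries share depth and composition, and these values are descriptions. Over the 36 pairs the median r was -0.07, and 17 pairs were above 0. The sign of that median turned with the setting, since it was 0.10 with 8 groups of sex, genotype and exercise removed, 0.11 in males, -0.05 in females and 0.05 without mice 7, 15 and 19. The subunit genes did not vary as a block, with r of 0.47 for *Chrna1* and *Chrnd*, -0.17 for *Chrna1* and *Chrnb1*, and 0.12 for *Chrnd* and *Chrne*. The highest pair, *Chrnb1* and *Runx1* at 0.58, fell to 0.13 without mice 7, 15 and 19, and the lowest, *Chrnb1* and *Hdac4* at -0.60, was -0.65 without them.

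*Chrna1* varied with the slow fiber sum (r = 0.86), with 0.92 in the 12 females, 0.19 in the 13 males and 0.75 over both sexes without mice 1 and 2. With the Schwann cell sum its r was -0.30, with -0.88 in the females, near 0 in the males and -0.71 once sex was removed. In the females its highest value and the highest slow fiber sum were those of mouse 2. The nearest genes to *Chrna1* among 12806 were *Gm34302* (0.91), *Tnnt1*, the slow troponin T (0.89), and *Mtrr* (0.88). *Ncam1* varied against the fast fiber sum (r = -0.73, with -0.79 in the males, -0.42 in the females and -0.60 once sex was removed), and its nearest genes were *Scn3b* (0.87), *Sln*, the calcium pump regulator sarcolipin (0.87), and *Osbpl3* (0.86). *Musk* was nearest to *Gm32219* (0.90), *Serinc2* (0.87) and *Serpinb6a* (0.86). These neighbours of *Chrna1*, *Musk* and *Ncam1* were found with both sexes pooled, and all 3 genes differed between sexes, as did *Tnnt1*.

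*Runx1* was nearest to *Cd44*, a cell adhesion receptor (0.92), *Rhoc* (0.87) and *Tubb6* (0.85), which fell to 0.77, 0.58 and 0.52 without mice 19 and 7. Its r with the immune cell sum, which was also highest in these mice, was 0.65 and fell to 0.41 without them (n = 23). *Hdac4* was nearest to *Nsd1* (0.86), *C2cd5* (0.83) and *Neo1* (0.81), *Chrnb1* to *Pofut2* (0.80), *Gusb* (0.79) and *Tnnt2* (0.77), and *Chrne* to *Tmem161a* (0.78), *Ddo* (0.78) and *Slc27a1* (0.76). *Chrnd* had the weakest neighbours, *Snora30* (0.70), *Zbtb4* (0.68) and *9230114K14Rik* (0.68), and *Chrng*, in sparse counts, had *Fbln7* (0.76), *Gla* (0.75) and *Anpep* (0.75).

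**Figure D5:**
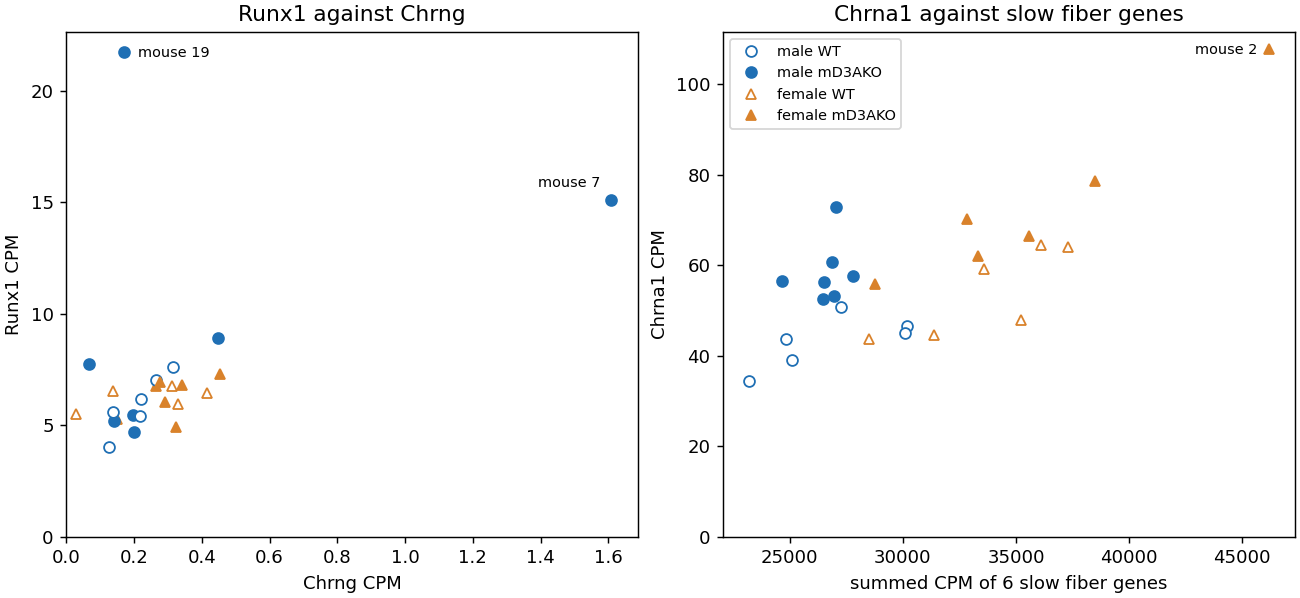
Left, *Runx1* against *Chrng* in CPM, and right, *Chrna1* in CPM against the summed CPM of 6 slow fiber genes, with 1 point per mouse, circles for males, triangles for females, open symbols for WT and filled symbols for mD3AKO. Mouse 7 stands apart on both axes of the left panel and mouse 19 on that of *Runx1*, and in the right panel mouse 2 is the highest on both axes.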

How the data were processed

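Each of 25 *soleus* libraries came from 1 mouse. The p-values set a difference against the spread between these mice, which includes sex in the fit of 4 groups. RNA was ribosome-depleted, stranded and read in pairs of 75 bases. The deposited counts are raw gene counts that the authors made on mm10 with GENCODE M15, and the submitters' processing notes name FastQC 0.11.5, STAR 2.5.3a and featureCounts 1.5.3. The strand setting of the counting is not given in the sources used here, so that reads of overlapping antisense genes may be shared. Of 52636 identifiers, 52403 matched a symbol (GENCODE M21).

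Counts were fitted in edgeR 4.0.16 (R 4.3.3) with 4 group means, TMM scaling, filterByExpr (min.count 10, min.total.count 15, which kept about 99.9% of the counts) and the quasi-likelihood test, with Benjamini-Hochberg adjustment over all genes tested and a threshold of 0.05. Main effects are averages over the other factor. A fit with 8 groups gave sex. CPM and RPKM use the TMM library sizes and the deposited gene lengths, and 1 CPM was 32.2 reads at the median depth. Fold changes are given with their standard error and levels with the SD. Correlations used log2 CPM with a prior count of 2 and genes whose mean log2 CPM was not below 0. Alternatives were DESeq2 1.42.0, limma-voom 3.58.1, other scalings and filters, sex in the model, each sex alone and each library left out. The fits were tested on simulated data. Of 67 replicate pairs 0 held identical counts, and the lowest chi-square per gene was 12.9.

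The genes and lists were chosen with earlier results of these data known. Named were the 9 genes, *Dnmt3a*, list genes that passed, the highest and lowest gene of the postsynaptic and denervation lists, and the 3 nearest genes by correlation. Other list genes (*Lrp4*, *Rapsn*, *Fbxo32*, *Myog*, *Myod1*, *Cbfb*, *Runx3*, the nicotinic subunits with few counts) and the genes described in mice 7 and 19 were added after their values were seen. The satellite cell sum without *Sdc4*, the correlation without mice 7 and 19 and the settings without mice 7, 15 and 19 together, without the 6 mice highest in Schwann cell genes and with 8 groups were also chosen after the data were seen. RefSeq promoter windows were matched by symbol. The values of 1 gene of the denervation list are not reported here.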

Additional observations from a re-analysis of the deposited data

Results flagged for a closer look

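Of 36 sets of a gene and a group, 7 held a mouse whose gap to its nearest neighbour was large for the group's range. The critical value is set for 1 in 20 sets of independent, normally distributed values. These sets share mice and mix the sexes, so that the 7 cannot be compared with that rate. In resting mD3AKO mice, mouse 7 had 26.0 CPM of *Chrnb1* (next 16.1), 1.61 CPM of *Chrng* (next 0.323) and 15.1 CPM of *Runx1* (next 6.94), and mouse 2 had 108 CPM of *Chrna1* (next 72.9). In exercised mD3AKO mice, mouse 19 had 21.8 CPM of *Runx1* (next 8.90). In exercised WT mice, mouse 4 had 7.91 CPM of *Chrnd* (next 5.68) and mouse 18 the lowest *Runx1*, 4.04 CPM (next 5.60), which was just past the critical value (ratio 0.569 beside 0.568). So 3 of the 7 flags came from mouse 7, which also had the highest *Myh3* and fibroblast gene sum. The part of those values in its receptor genes was not tested.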

How the results depend on the processing

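No paired analysis was possible because every mouse has its own number and the groups share none. Groups of 5 to 7 mice, or of 2 to 4 mice once split by sex, and the low counts of *Chrng* limit detection. Of 363 fold changes under other settings, 321 kept their direction and their side of the threshold, 35 turned their direction, 6 came to pass and 1 no longer passed, and the cause was not tested. Of 180 correlations between the 9 genes under other settings, 59 moved by more than their jackknife error.

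For exercise, 1699 genes were called, and 927 with library totals, 966 in males alone and 512 in females alone. With sex as an additive term 1946 were called, and with 8 groups 1819. For genotype 44 were called, and 29 with library totals, 81 with DESeq2, 72 with sex as an additive term, 23 in males alone and 6 in females alone. Without a filter 42 were called for genotype, and with 8 groups 60. Of the 9 genes, 1 (*Musk*) passed for exercise with sex as an additive term, with 8 groups and in males alone (0.34, adjusted p 0.0190 in edgeR), and 1 (*Chrna1*) for genotype with DESeq2, with sex as an additive term and in males alone. Of the 19 denervation genes, 2 passed for genotype with 8 groups, without a filter, with sex as an additive term and in males alone, and 3 with DESeq2. The exercise effect by sex called 8 genes, and 4 without mice 7, 15 and 19.

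Without mice 10, 17, 20, 21, 22 and 25, the highest in Schwann cell genes, 1074 genes were called for exercise, 19 for genotype, 545 for sex (1418 with all mice), 42 for the exercise effect by sex and 300 for exercise in females (609 with all mice). There *Ncam1* was at 0.019 and in females *Musk* at -0.038 for exercise, *Chrne* at -0.0073 for genotype, *Musk* at -0.090 and *Hdac4* at -0.14 for the interaction, and *Chrne* at -0.048 and *Chrng* at -0.11 for sex. The log2 difference of *Ncam1* for sex was -0.30.

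The values that turned their direction under these settings had adjusted p-values of 0.298 or higher. With DESeq2 size factors or the DESeq2 test *Hdac4* was at 0.0015 for genotype, and with 8 groups at 6.81e-04. With library totals, *Chrnb1* was at -0.0097 and *Chrne* at -0.012 for genotype and *Hdac4* at -6.59e-04 for the interaction. With limma-voom *Chrng* was at 0.046 for exercise and *Hdac4* at -0.014 for the interaction. *Chrna1* was at -0.027 for exercise with sex as an additive term and at -0.030 with 8 groups. In males alone *Hdac4* was at 0.029 for genotype. In females alone *Chrna1* was at -0.11, *Chrnb1* at 0.085 and *Chrng* at 0.99 for exercise, *Chrnb1* at -0.081 and *Musk* at -0.14 for genotype, and *Musk* at -0.039, *Runx1* at -0.026 and *Hdac4* at -0.024 for the interaction. Without mice 7, 15 and 19, *Chrnb1* was at 0.0052, *Chrnd* at 0.045 and *Chrng* at 0.29 for exercise, *Chrnb1* at -0.084, *Musk* at -0.047 and *Hdac4* at 0.027 for genotype, *Chrng* at 0.017 for the interaction, and *Chrnb1* at -0.016 and *Chrng* at -0.062 for sex.

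With each library left out, 1539 to 1804 genes passed for exercise and 35 to 48 for genotype, and 834 (without mouse 20) to 1740 (without mouse 7) for sex. Of the 9 genes, 0 to 1 passed for exercise (*Chrne* without mouse 7), 0 to 1 for genotype (*Chrna1* without mouse 1) and 2 to 3 for sex. The exercise effect by sex called 3 (without mouse 2) to 17 (without mouse 23) genes. For exercise the fold changes ranged from -0.039 to 0.080 for *Chrna1*, -0.074 to 0.037 for *Chrnb1*, -0.065 to 0.016 for *Chrnd* and -0.31 to 0.27 for *Chrng*. For genotype they ranged from -0.054 to 0.056 for *Chrnb1*, -0.0043 to 0.068 for *Chrne* and -0.058 to 0.044 for *Hdac4*. For the interaction they ranged from -0.088 to 0.11 for *Hdac4* and -0.022 to 0.22 for *Musk*, and for sex from -0.13 to 0.67 for *Chrng* and -0.037 to 0.11 for *Hdac4*.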

Other observations

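Genes of the postsynaptic and denervation lists also differed between sexes. Of the 26 postsynaptic genes, 3 were lower in males and 0 higher (2.79% of all genes were lower). *Colq*, the collagen tail that anchors acetylcholinesterase, differed by -0.34 on the log2 scale (adjusted p 0.0160 in edgeR), *Lamb2*, the synaptic laminin chain, by -0.29 (adjusted p 0.00684) and *Crkl*, an adaptor that binds DOK7, by -0.18 (adjusted p 0.0321). Of the 19 denervation genes, 3 were lower in males and 0 higher. These were *Hdac9* (log2 -0.41), *Myh8* (-1.13) and *Cdkn1a* (-0.56). Without mice 7, 15 and 19, 5 of the postsynaptic and 7 of the denervation genes passed, beside 1578 of all genes (1418 with all mice). Among the nicotinic subunits outside the muscle receptor, *Chrna4* was higher in males (log2 1.53, adjusted p 0.0188) and *Chrna9* lower (-1.25, adjusted p 0.0482), both at low counts. The order of mouse numbers goes with sex here too, and the slow and fast fiber markers differ in the same comparison.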
